A study of Mus musculus with 4 samples.

Results

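The genes that make retinoic acid and the nuclear receptors that bind it were followed in mouse colonoids, which are 3-dimensional cultures of colonic epithelium, with and without butyrate. The 9 members were the rows of the count table whose symbols are *Rdh10*, *Dhrs3*, *Aldh1a1*, *Aldh1a3*, *Crabp2*, *Rara*, *Rarb*, *Rarg* and *Rxra*, out of 36144 gene names. Of these, 8 members had more than 10 counts in at least 2 libraries, as did 13979 names in the whole table, and *Crabp2* did not. Each of these 8 had more than 10 counts in all 4 libraries, so that none passed through a single condition.

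The study asked how butyrate, a short-chain fatty acid made by colonic bacteria, acts on the colonic epithelium and its hormone-producing cells. Poly-A RNA was sequenced from colonoids at passage 3 that were left untreated or given 2 mM sodium butyrate for 48 h or 72 h (day 2 and day 3 in the labels). There was 1 library for each of the 4 conditions, and all cultures came from the colon of 1 mouse. The labels describe this animal as WT, male and 24 weeks old, whereas the study's methods describe the cultures as Hes1-GFP, a reporter of Notch activity. All conditions shared a crypt medium with EGF, Noggin, R-spondin, the Wnt activator CHIR99021, the kinase inhibitor Y-27632 and the N2 and B27 supplements. The retinoid content of this medium was not given in the sources used here.

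Vitamin A reaches cells as retinol or as provitamin A carotenoids. Retinol dehydrogenases such as RDH10 oxidise retinol to retinal, DHRS3 reduces retinal back to retinol, and retinal dehydrogenases of the ALDH1A family oxidise retinal irreversibly to retinoic acid. Retinoic acid enters the nucleus with the binding protein CRABP2, and there it acts on heterodimers of a retinoic acid receptor (RARA, RARB or RARG) and a retinoid X receptor such as RXRA, which sit on direct repeats of a short half-site in the DNA of target genes. In the intestine this pathway is known for its part in epithelial differentiation and in educating the immune cells of the gut wall.

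The members lie on 9 different chromosomes, and their positions are given for the GRCm38.p6 build. *Rdh10* (ENSMUSG00000025921.7) spans chr1:16105774-16133734 and *Dhrs3* (ENSMUSG00000066026.14) spans chr4:144892827-144928209, both on the plus strand. *Aldh1a1* (ENSMUSG00000053279.8) spans chr19:20492715-20643465 on the plus strand and *Aldh1a3* (ENSMUSG00000015134.15) spans chr7:66390890-66427517 on the minus strand. *Crabp2* (ENSMUSG00000004885.5) spans chr3:87948666-87953376 on the plus strand. Of the receptors, *Rara* (ENSMUSG00000037992.16) spans chr11:98927818-98974942 on the plus strand, *Rarb* (ENSMUSG00000017491.9) chr14:16430839-16819156 on the minus strand, *Rarg* (ENSMUSG00000001288.15) chr15:102234938-102257517 on the minus strand and *Rxra* (ENSMUSG00000015846.14) chr2:27676440-27762957 on the plus strand.

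The promoter of *Rarb* is shown because this gene is a well known direct target of the receptors and differed most between butyrate and untreated cultures among the members. RefSeq windows of GRCm38.p6 matched 6 of the 9 members, with 14 start sites in all, and the 250 bases before each start were searched on both strands. The 150 bases before the *Rarb* start, chr14:16575477-16575626 on the minus strand, are printed 5′ to 3′, with the 2 half-sites of a relaxed DR5 element in capitals. This start lies inside the annotated span of the gene, which also holds longer transcripts that begin further upstream.

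Rarb: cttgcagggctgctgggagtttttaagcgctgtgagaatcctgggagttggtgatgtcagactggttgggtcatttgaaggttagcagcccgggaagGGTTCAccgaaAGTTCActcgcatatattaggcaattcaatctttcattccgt

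A relaxed DR5 element was taken as 2 half-sites in the same direction, spaced by 5 bases, each of them either the canonical AGGTCA or one of 3 close forms. One such form was GGGTCA, another was AGTTCA, and the last was GGTTCA. The element was found from 53 to 37 bases before the *Rarb* start and in no other member's window. Of all 32851 windows of this length, 29 (0.0883%) held it. The strict form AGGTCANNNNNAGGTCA, which is contained in the relaxed one, was in 3 windows (0.00913%), none of them of a member. A relaxed DR2 element, with 2 bases between the same half-sites, was in 57 windows (0.174%) and in none of the members. The single half-site AGGTCA, which is part of the strict element, was in 1 of the 2 *Rxra* windows and in 1 of the 2 *Rarg* windows, and in 14.0% of all windows. A match says only that these letters are present, and no binding was measured.

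The promoters of *Aldh1a1* and of *Aldh1a7*, a rodent paralogue that lies next to it, are shown because both genes were higher with butyrate at 48 h and lower at 72 h. *Aldh1a1* has 2 start sites here, and the downstream one is shown because its window aligned better with that of *Aldh1a7*. The likeness given below follows in part from that choice. The last 80 bases before the start are chr19:20601888-20601967 on the plus strand for *Aldh1a1* and chr19:20727557-20727636 on the minus strand for *Aldh1a7*. Capitals mark a CCAAT box and the octamer ATGCAAAT.

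Aldh1a1: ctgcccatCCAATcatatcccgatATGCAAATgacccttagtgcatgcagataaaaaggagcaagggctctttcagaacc

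Aldh1a7: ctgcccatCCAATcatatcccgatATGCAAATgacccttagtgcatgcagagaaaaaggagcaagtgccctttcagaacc

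These stretches were identical at 77 of 80 bases (96.25%), and over the 250 upstream bases the pair were 68.0% identical. The upstream start of *Aldh1a1* was 53.9% identical to *Aldh1a7* over the same length and held neither motif. CCAAT stood 72 to 68 bases and the octamer 56 to 49 bases before the start in both genes. CCAAT was in 33.8% and the octamer in 1.60% of all windows, and the 2 motifs do not overlap.

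Library totals were between 20790225 and 24207840 counts, and mitochondrial genes took 14.1% to 18.4% of them. A floor of 3 counts equals 0.124 to 0.144 CPM, that is counts scaled to the library total. All 12 markers of colonic epithelium passed the count filter, with summed levels of 216165 to 292101 normalised counts. Of 8 mesenchymal markers 2 passed, with summed levels of 82.1 to 127 normalised counts and *Col3a1* and *Lum* at 0 in every library. Of 8 immune markers 1 passed, with summed levels of 41.7 to 71.3. Of 4 endothelial markers 2 passed (sums of 72.6 to 116), as did 2 of 4 for neurons and glia (41.7 to 77.8) and 3 of 6 for the small intestine (809 to 1642). Values are DESeq2-normalised counts, which are counts divided by a size factor for each library, and fold changes are log2 ratios after adding 1 to each normalised count. Brackets hold exact 95% intervals for the log2 ratio that cover counting error only. With 1 library per condition, no difference could be set against replicate error, and no p-value was computed. Where 4 values follow each other, they stand for untreated 48 h, butyrate 48 h, untreated 72 h and butyrate 72 h. RNA from whole cultures also cannot tell fewer cells of a type from less RNA per cell.

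In butyrate cultures at 48 h, the retinal dehydrogenase *Aldh1a1* was 2.33-fold and the receptor *Rarb* 3.68-fold above untreated cultures, and the other 6 members differed by less than 2-fold. At 72 h, *Aldh1a1* was 1.65-fold lower with butyrate, whereas *Rarb* remained higher at just under 2-fold. The retinal dehydrogenase *Aldh1a3* was higher with butyrate at both times. *Rdh10*, *Rara* and *Rarg* stayed within 0.21 of the untreated level on the log2 scale at both times.

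**Figure D1:**
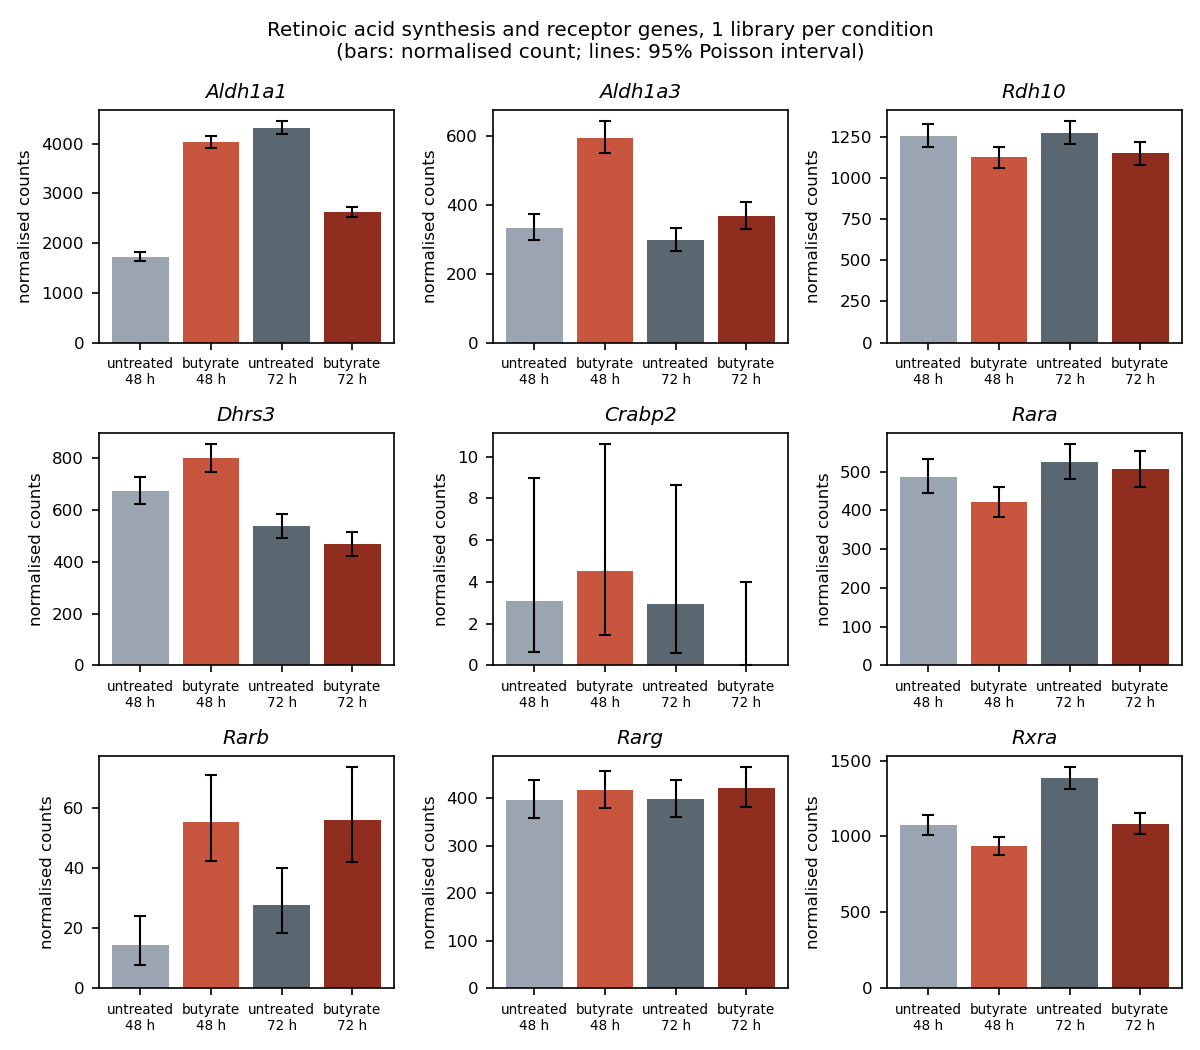
Normalised counts of the 9 members in each of the 4 libraries, with 1 panel per gene, a linear axis from 0 and lines for the 95% Poisson interval. *Aldh1a1* was highest in butyrate cultures at 48 h (4029) and in untreated cultures at 72 h (4321), *Rarb* was higher in both butyrate libraries (55.3 and 56.2) than in both untreated ones (14.3 and 27.6), and the *Crabp2* panel rests on 5 counts or fewer per library.

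The first step of the pathway showed small differences. *Rdh10*, which makes retinal from retinol, had 1261 normalised counts in untreated and 1128 in butyrate cultures at 48 h, and 1276 and 1152 at 72 h. Both butyrate libraries were below both untreated libraries, and the log2 fold changes were -0.16 [-0.28, -0.05] and -0.15 [-0.27, -0.03]. The level did not move with time beyond counting error, by 0.02 [-0.10, 0.13] in untreated and 0.03 [-0.09, 0.15] in butyrate cultures.

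*Dhrs3*, which runs the reaction in reverse and is itself induced by retinoic acid in many tissues, had 674.9 normalised counts in untreated and 800.2 in butyrate cultures at 48 h. At 72 h it had 538.1 and 467.7. The butyrate library was thus the higher one at 48 h (log2 fold change 0.25 [0.10, 0.39]) and the lower one at 72 h (-0.20 [-0.39, -0.02]). Over time the level was lower at 72 h in both arms, by -0.33 [-0.49, -0.16] in untreated and -0.77 [-0.94, -0.61] in butyrate cultures.

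*Aldh1a1* encodes a retinal dehydrogenase that completes retinoic acid synthesis in the epithelium. At 48 h it had 1728 normalised counts in untreated and 4029 in butyrate cultures. At 72 h the untreated library held 4321 and the butyrate library 2621. The untreated library at 48 h was the lowest and the untreated library at 72 h the highest, so the direction of the butyrate difference turned between the times. The log2 fold change of butyrate over untreated was 1.22 [1.14, 1.30] at 48 h and -0.72 [-0.79, -0.65] at 72 h. From 48 h to 72 h it was higher by 1.32 [1.24, 1.40] in untreated cultures and lower by -0.62 [-0.69, -0.55] in butyrate cultures. The untreated cultures alone therefore differed between days by about as much as the 48 h cultures differed with butyrate.

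The paralogue *Aldh1a7* had 269 and 624 counts in untreated and then butyrate cultures at 48 h, and 310 and 192 at 72 h. Its log2 fold change with butyrate was 1.04 [0.83, 1.25] at 48 h and -0.56 [-0.83, -0.30] at 72 h, in the same directions as *Aldh1a1*. The pair differed over time in untreated cultures, where *Aldh1a7* moved by 0.15 [-0.09, 0.40], and in butyrate cultures, where it moved by -1.44 [-1.69, -1.21]. Since counts came from pseudoalignment, reads can be shared between near-identical transcripts. Of the 4934 words of 31 bases in *Aldh1a1* transcripts, 281 (5.70%) were also in *Aldh1a7*, where they made up 13.8% of the words. With the counts of both genes added, the directions for *Aldh1a1* were the same in all 4 comparisons. Both genes had the same sign in each comparison, so the sum could not reverse and does not test for shared reads.

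The summed level of colonocyte markers moved in the same direction as *Aldh1a1* in all 4 comparisons. The summed level of 8 colonocyte markers was 49297 and 81675 normalised counts in untreated and then butyrate cultures at 48 h, and 62484 and 41886 at 72 h. Much of this sum was *Car1*, with 20390.2, 44919.6, 34634.5 and 18849.9 normalised counts. In untreated cultures *Car1* rose over time by more than the sum, so the other genes together fell. By gene, 6 of the 8 were higher and 2 lower in that comparison. With butyrate, 7 of the 8 were higher at 48 h and 7 of the 8 were lower at 72 h, among them the anion exchanger gene *Slc26a3* with 2983, 8211, 4385 and 3498 counts. Stem cell markers went the other way in both butyrate comparisons, with summed levels of 18204, 13277, 12746 and 20830 for 5 genes. Goblet cell markers were at 114554, 92691, 167126 and 90757 for 8 genes, and most of this was *Muc2* (73061.5, 52052.6, 119430 and 65481.5). With butyrate 3 of these 8 were higher and 5 lower at 48 h, and 1 was higher and 7 lower at 72 h. Enteroendocrine markers summed to 7826, 9174, 9775 and 5361 for 6 genes, in the same directions as *Aldh1a1*. At 48 h 4 of these 6 were higher and 2 lower with butyrate, with a median log2 fold change of 0.03, and the difference in the sum came almost wholly from *Chgb* (4142 and 5481 normalised counts), while at 72 h all 6 were lower. Tuft cell markers summed to between 160.9 and 458.1 for 4 genes, lowest with butyrate at 72 h. Their part in the *Aldh1a1* values was not tested.

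*Aldh1a3*, the other retinal dehydrogenase among the members, had 334.4 and 596.1 normalised counts in untreated and then butyrate cultures at 48 h, and 298.2 and 368.3 at 72 h. The butyrate library at 48 h stood above the other 3. The log2 fold change was 0.83 [0.64, 1.03] at 48 h and 0.30 [0.08, 0.53] at 72 h. Over time it moved by -0.16 [-0.40, 0.07] in untreated and -0.69 [-0.89, -0.50] in butyrate cultures. Of its 31-base words, 2.26% were shared with other genes. *Aldh1a2*, the retinal dehydrogenase best known from mesenchyme and dendritic cells, had 0 counts in every library, which allows up to 0.144 CPM in the smallest.

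By the distance of centred log2 levels over the 4 libraries, the genes closest to *Aldh1a1* among 10787 genes were *Cdkn1c*, a cell cycle inhibitor (0.29), *Wfdc18* (0.33) and the protease gene *Ctsf* (0.35). *Cdkn1c* differed with butyrate by 1.29 at 48 h and by -0.43 at 72 h on the log2 scale. Those closest to *Aldh1a3* were *Gimap9* (0.04), the carbonic anhydrase gene *Car2* (0.06) and *Prelid2* (0.06). *Car2* had 7645 and 14145 normalised counts at 48 h and 6856 and 8258 at 72 h, in untreated and then butyrate cultures. With 4 values per gene, many genes can lie this close.

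*Crabp2*, the carrier of retinoic acid to the nucleus, had 3 and 5 counts in untreated and then butyrate cultures at 48 h, and 3 and 0 at 72 h. These counts lie at or near the floor, and the log2 ratio at 48 h was 0.44 [-1.80, 3.25], so that no difference was detectable at this depth. The 0 counts at 72 h allow up to 0.144 CPM. No fold is given at 72 h, where both libraries were at or under the floor.

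Among the receptors, *Rarb* was the member that differed most with butyrate. Its counts were 14, 61, 28 and 52, or 14.3, 55.3, 27.6 and 56.2 after normalisation. Both butyrate libraries were above both untreated libraries. The log2 fold change was 1.88 [1.10, 2.90] at 48 h and 1.00 [0.33, 1.74] at 72 h, where it fell just short of 2-fold before rounding and passed it under total count scaling. The butyrate cultures were level over time at 0.02 [-0.54, 0.58], and the untreated cultures differed by 0.90 with an interval of [-0.02, 1.99] that included 0.

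The transcripts of *Rarb* overlap with those of a neighbour. Of its 5341 words of 31 bases, 1712 (32.1%) were also in transcripts of *Top2b*, a topoisomerase gene on the other strand whose end overlaps that of *Rarb*. *Top2b*, chosen after this overlap was seen, had 3375, 2501, 3758 and 3317 counts. Its log2 fold change with butyrate was -0.60 [-0.68, -0.53] at 48 h and -0.05 [-0.12, 0.02] at 72 h. Whether reads were counted by strand was not given in the sources used here, so reads from this overlap could be assigned to either gene. Among the markers of other cell types and regions, *Vwf* (43, 90, 27 and 62 counts) and *Gata4* (23, 98, 61 and 155 counts) were also higher with butyrate at both times. They are named after their values were seen, and other markers on their lists did not all follow them. Of the 2 endothelial markers that passed, 2 were higher at 48 h, and 1 was higher and 1 lower at 72 h. Of the 3 small-intestine markers that passed, 2 were higher and 1 lower at 48 h, and 1 was higher and 2 lower at 72 h. The part of these cell types in the *Rarb* values was not tested.

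*Rara*, which with *Rarg* made up most of its family, had 486.7 and 421.0 normalised counts in untreated and then butyrate cultures at 48 h, and 524.3 and 506.5 at 72 h. Its log2 fold change was -0.21 [-0.40, -0.02] at 48 h and -0.05 [-0.23, 0.13] at 72 h. *Rarg* had 396.7, 417.4, 397.9 and 421.2 normalised counts in the same order. Its log2 fold changes of 0.07 [-0.12, 0.27] and 0.08 [-0.12, 0.29] had intervals that included 0.

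*Rxra*, the partner of all 3 retinoic acid receptors, had 1073 and 937.2 normalised counts in untreated and then butyrate cultures at 48 h, and 1382 and 1083 at 72 h. The untreated library at 72 h was the highest. With butyrate the log2 fold change was -0.19 [-0.32, -0.07] at 48 h and -0.35 [-0.47, -0.23] at 72 h. From 48 h to 72 h it was higher by 0.37 [0.25, 0.48] in untreated and by 0.21 [0.08, 0.34] in butyrate cultures. The other partner gene *Rxrb* had 900, 946, 759 and 733 counts, with log2 fold changes with butyrate of -0.10 [-0.23, 0.03] and 0.08 [-0.07, 0.23]. *Rxrg* had 0, 2, 0 and 3 counts.

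**Figure D2:**
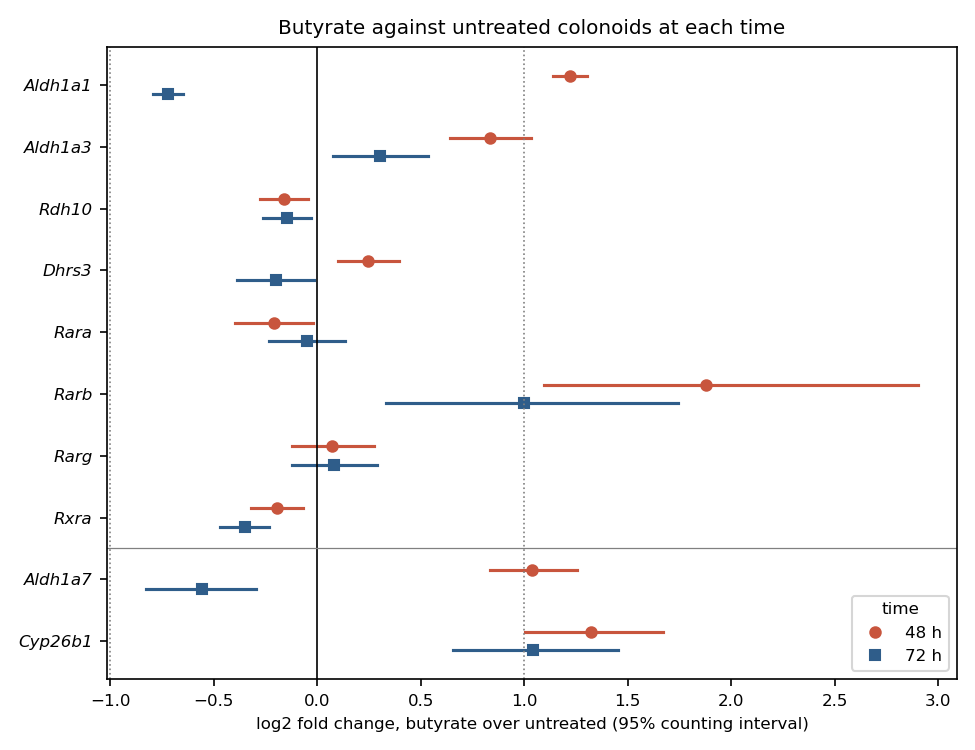
Log2 fold changes of butyrate over untreated for the 8 members that passed the count filter, and below the line for *Aldh1a7* and *Cyp26b1*, with circles for 48 h, squares for 72 h and lines for the 95% interval of counting error. *Aldh1a1* and *Aldh1a7* lie right of 0 at 48 h and left of 0 at 72 h, *Rarb* and *Cyp26b1* lie right of 0 at both times, and dotted lines mark 2-fold.

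Levels of different genes were compared as normalised counts per kb of exon. *Aldh1a1* was the highest member in every library, with 350 and 816 per kb in untreated and then butyrate cultures at 48 h, and 875 and 531 at 72 h. *Rdh10*, *Dhrs3* and *Rxra* took the next 3 places in every library, and *Rara*, *Rarg* and *Aldh1a3* the 3 after them. *Rarb* with 2.72 to 10.7 per kb and *Crabp2* came last. Counting intervals of neighbours in this order overlapped for *Rara* and *Rarg* in all libraries except the untreated one at 72 h. They also overlapped for *Dhrs3* and *Rdh10* in butyrate cultures at 48 h, and for *Rarb* and *Crabp2* in both untreated libraries. The order was the same in every library when the longest transcript was used as the length.

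Within the *Aldh1a* family, the summed level was 556 per kb in untreated and 1219 in butyrate cultures at 48 h, and 1088 and 711 at 72 h. *Aldh1a1* held 63.0%, 66.9%, 80.4% and 74.7% of it, *Aldh1a3* 13.0%, 10.6%, 5.94% and 11.2%, and *Aldh1a7* the rest. By the longest transcript the share of *Aldh1a1* was 76.1%, 79.3%, 88.6% and 84.3%. The summed level of the 3 retinoic acid receptors varied far less, from 205 to 226 per kb. *Rarb* held 1.31% of it in untreated and 5.13% in butyrate cultures at 48 h, and 2.40% and 4.73% at 72 h, whereas *Rara* held 47.1% to 54.9%. The summed retinoid X receptor level was 428 and 388 per kb at 48 h and 442 and 399 at 72 h, in untreated and then butyrate cultures.

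**Figure D3:**
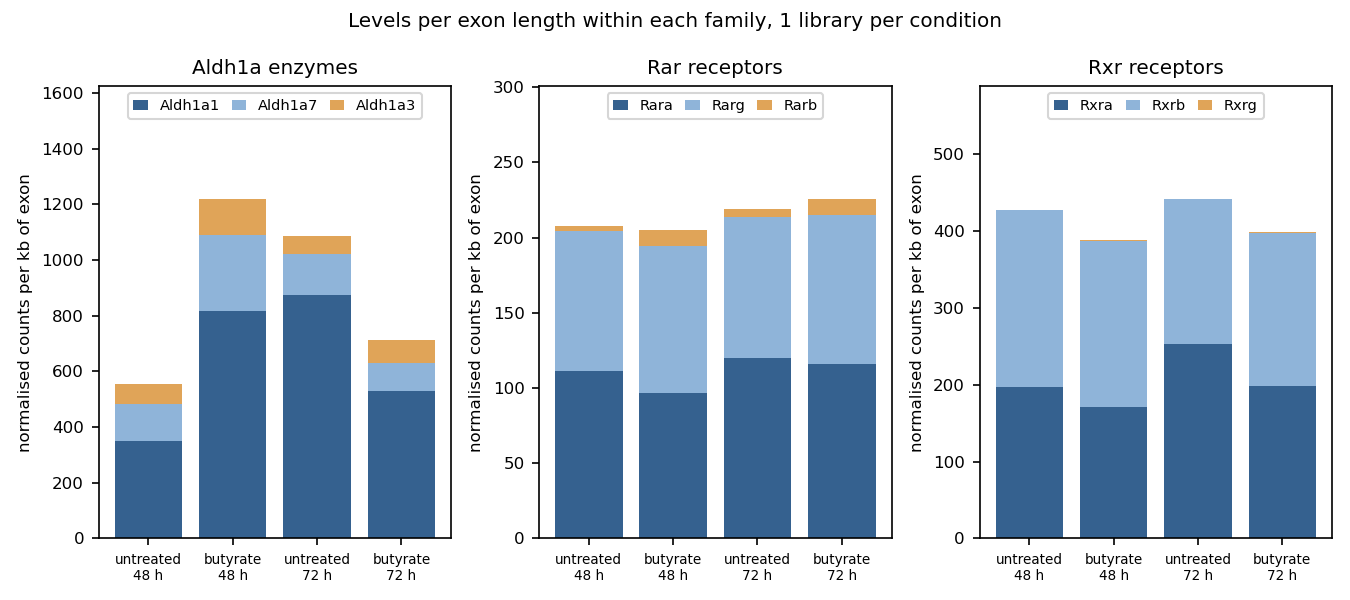
Normalised counts per kb of exon, stacked by gene, for the Aldh1a enzymes, the retinoic acid receptors and the retinoid X receptors in each of the 4 libraries. The Aldh1a sum moves between 556 and 1219 and is mostly *Aldh1a1*, while the receptor sums stay between 205 and 226 (Rar) and between 388 and 442 (Rxr), and *Rxrg* is too low to see in most bars.

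Over the members that passed, 2 of 8 (*Aldh1a1* and *Rarb*) were at least 2-fold higher with butyrate at 48 h, and 0 were at least 2-fold lower. Of all 13979 genes, 6.94% were at least 2-fold higher and 3.08% at least 2-fold lower. At 1.5-fold, 3 members were higher and 0 lower, against 13.1% and 8.9% of all genes. The median log2 fold change was 0.16 over the members and -0.01 over all genes. The counting interval lay above 0 for 4 members and below 0 for 3 (*Rdh10*, *Rara* and *Rxra*). Across all genes it lay above 0 for 29.3% and below 0 for 31.3%, so that an interval clear of 0 was common at this depth.

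At 72 h, 0 of 8 members were at least 2-fold higher and 0 at least 2-fold lower with butyrate, against 4.53% and 3.78% of all genes. At 1.5-fold, 1 member was higher (*Rarb*) and 1 lower (*Aldh1a1*), against 9.5% and 8.53%. The median was -0.10 over the members and 0.00 over all genes. Intervals lay above 0 for *Aldh1a3* and *Rarb*, and below 0 for *Rdh10*, *Dhrs3*, *Aldh1a1* and *Rxra*, against 25.9% and 26.4% of all genes.

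The comparisons over time use the same 4 libraries as those with butyrate, so their values are not independent of them. In untreated cultures, 1 member (*Aldh1a1*) was at least 2-fold higher at 72 h than at 48 h and 0 were lower, against 2.66% and 1.82% of all genes. At 1.5-fold, 2 members (*Aldh1a1* and *Rarb*) were higher and 0 lower, against 6.82% and 5.17%. In butyrate cultures, 0 members were 2-fold higher and 0 were 2-fold lower, against 3.67% and 4.95% of all genes. At 1.5-fold, 0 members were higher and 3 were lower, against 9.66% and 11.9%. Those 3 were *Aldh1a1*, *Aldh1a3* and *Dhrs3*.

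Beyond the members, 66 other genes of the pathway were on lists written from general knowledge, and 47 of them passed the count filter. With butyrate at 48 h, 6 were at least 2-fold higher and 2 at least 2-fold lower, and at 72 h 4 were higher and 2 lower. The shares over all genes were 6.94% and 3.08% at 48 h, and 4.53% and 3.78% at 72 h, near those of the lower calls here. Among these, *Nr2f1* (13, 4, 19 and 10 counts, lower at 48 h) and *Rdh9* (26, 47, 28 and 76 counts, higher at 72 h) had means under 50 and are named after their values were seen. Of the 31-base words of *Rdh9*, 72.0% were shared with other genes, most of them with *Rdh16f1*. The median log2 fold change was -0.14 at 48 h and -0.10 at 72 h, beside -0.01 and 0.00 over all genes. From 48 h to 72 h, 1 was higher (*Pdk4*) and 1 lower (*Rdh1*) by 2-fold in untreated cultures, against 2.66% and 1.82% of all genes. In butyrate cultures 3 were higher (*Pdk4*, *Aldh8a1* and *Nr2f1*, also named after their values were seen) and 7 lower, among them *Aldh1a7*, *Bco1*, *Lrat* and *Rbp2*, against 3.67% and 4.95%.

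*Cyp26b1* encodes an enzyme that breaks down retinoic acid and is induced by it in many cells. It had 104 and 295 counts in untreated and then butyrate cultures at 48 h, and 83 and 157 at 72 h, with log2 fold changes of 1.32 [1.00, 1.67] and 1.04 [0.66, 1.45]. Both butyrate libraries were above both untreated ones, as for *Rarb*. Its paralogues were at the floor, with 0, 1, 1 and 0 counts for *Cyp26a1* and 1, 0, 1 and 0 for *Cyp26c1*. *Cyp2s1*, also on the list of retinoic acid hydroxylases and named after its values were seen, had 1267, 1926, 1693 and 782 counts, with log2 fold changes of 0.43 [0.33, 0.54] and -0.98 [-1.11, -0.86].

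Genes of uptake and storage went in both directions. *Bco1*, which cleaves beta-carotene to retinal, had 40, 269, 52 and 93 counts, with log2 fold changes of 2.55 [2.09, 3.09] and 0.95 [0.46, 1.49]. *Stra6*, which encodes a membrane receptor for the retinol carrier of the blood, had 57, 168, 65 and 81 counts, with log2 fold changes of 1.37 [0.95, 1.85] and 0.44 [-0.04, 0.94]. *Lrat*, which stores retinol as retinyl esters and is, like *Stra6*, also on the list of retinoic acid targets, was lower with butyrate at both times, with 129, 69, 120 and 22 counts and log2 fold changes of -1.06 [-1.52, -0.64] and -2.27 [-3.05, -1.65].

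*Rbp2*, a cellular retinol-binding protein typical of absorptive cells of the small intestine, had 46, 56, 50 and 20 counts and log2 fold changes with butyrate of 0.11 [-0.48, 0.71] and -1.16 [-2.02, -0.42]. *Isx*, a repressor of *Bco1* that is induced by retinoic acid, was abundant at 6445, 7756, 5782 and 4966 counts and differed little, by 0.09 [0.05, 0.14] and -0.09 [-0.15, -0.04].

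*Rdh1*, a retinol dehydrogenase gene, had 441, 893, 218 and 669 counts. Its log2 fold changes with butyrate were 0.84 [0.68, 1.01] and 1.74 [1.52, 1.97]. Of its 31-base words, 27.9% were shared with related genes, most often with *Rdh16f1*, which was chosen for this overlap and had log2 fold changes of 1.07 and 1.26. *Tgm2*, a transglutaminase gene known as a target of retinoic acid, had 528, 1556, 295 and 981 counts, with log2 fold changes of 1.39 [1.24, 1.53] and 1.86 [1.67, 2.06], and 20.0% of its words were shared with other genes.

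Of 13 co-regulators and partner receptors outside the members 12 passed, and 11 of these had log2 fold changes below 0 with butyrate at 48 h and 8 at 72 h, against 51.3% and 49.7% of all genes. Their medians were -0.18 and -0.10. Intervals lay below 0 for 8 at 48 h and 6 at 72 h, against 31.3% and 26.4% of all genes. Of 19 retinoic acid target genes outside the members 12 passed, of which 6 were above and 6 below 0 at each time, though not the same 6. At least 2-fold higher were 4 of them at 48 h and 2 at 72 h, against 6.94% and 4.53% of all genes, and 1 (*Lrat*) was at least 2-fold lower at each time, against 3.08% and 3.78%.

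**Figure D4:**
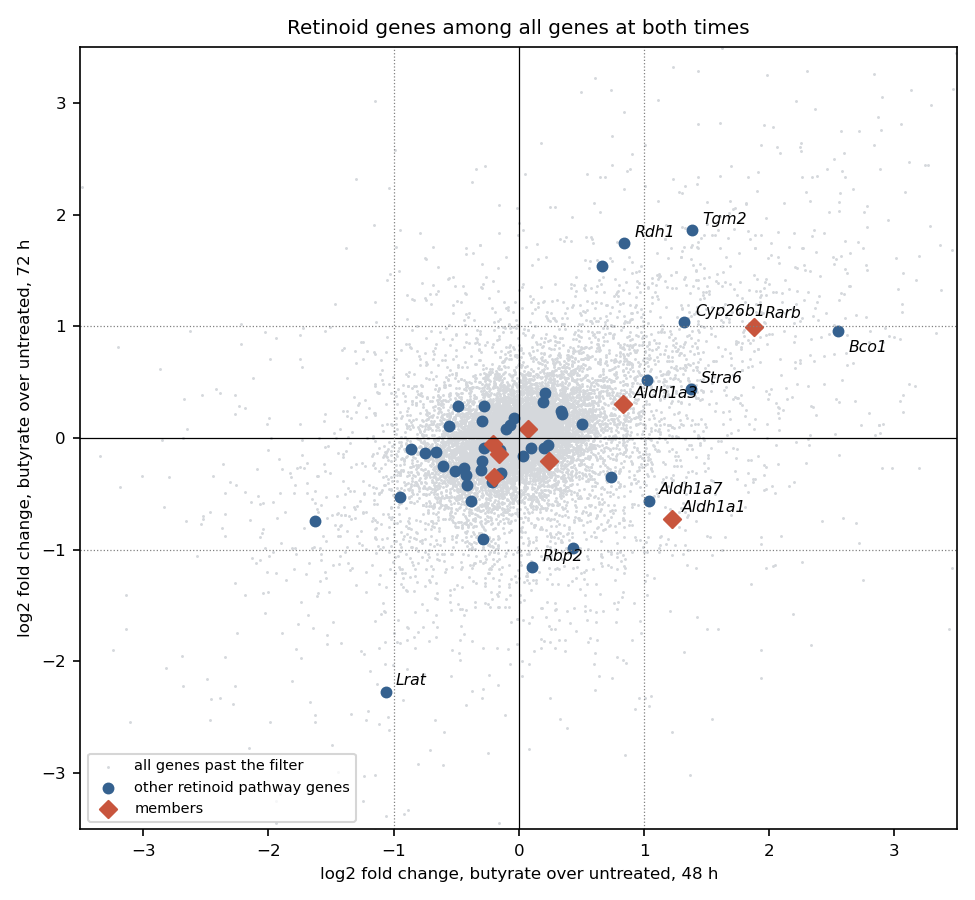
Log2 fold change of butyrate over untreated at 48 h (horizontal) and at 72 h (vertical) for all 13979 genes past the filter (grey), the 47 other retinoid pathway genes (circles) and the 8 members (diamonds), with 116 genes outside the axes. *Rarb*, *Cyp26b1*, *Tgm2* and *Bco1* lie at the upper right, *Lrat* at the lower left, and *Aldh1a1* and *Aldh1a7* at the lower right.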

How the data were processed

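The authors quantified reads by kallisto pseudoalignment and summed them to genes with tximport, and they deposited whole-number counts per gene without normalisation or filter. The submitters' processing notes name kallisto 0.44.0 and GRCm38.p6. The annotation and strand setting were not given in the sources used here. All 4 columns were matched to samples by name, and 0 columns belonged to no sample.

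A gene was kept when at least 2 libraries held more than 10 counts of it (13979 genes), the rule of the study's methods. Size factors came from DESeq2 1.42.0 and TMM factors from edgeR 4.0.16 in R 4.3.3. Other steps used Python 3.11.15 and its packages biopython 1.88, scipy 1.17.1, pandas 2.3.3, numpy 2.4.6 and matplotlib 3.10.9. Fold changes are log2 of normalised counts after adding 1, with exact Clopper-Pearson 95% intervals on the pair of counts. The libraries carried no molecular identifiers, so reads need not be separate molecules, and both the intervals and the 3-count floor reflect counting error alone. With 1 library per condition no model was fitted. The calculation was tested on simulated data.

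Members and lists were chosen with earlier results of these data known. Named genes were the members, listed pathway genes at least 2-fold different with butyrate and a mean normalised count of at least 50 plus a fixed set of 12 at any level (a few listed genes are not reported here), and for *Aldh1a1* and *Aldh1a3* the 3 genes with the closest levels among those with a mean of at least 100. Positions and exon lengths came from the GENCODE annotation and upstream sequences from RefSeq, both of GRCm38.p6. Dates stood in place of 26 gene names, and those rows were not used by name. The alternatives were TMM and total count scaling, the latter also without mitochondrial genes, pseudocounts of 0.5 and 5, thinning to the smallest total, other filters, a 1.5-fold threshold, another gene length, and *Aldh1a7* counts added to *Aldh1a1*.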

Additional observations from a re-analysis of the deposited data

Results flagged for a closer look

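Of 19 named genes examined, 4 were on one side of the untreated level with butyrate at 48 h and on the other at 72 h, each time by more than the counting interval. With 1 library per condition, the difference between the times was not tested. The share of all genes that turned in this way was not counted, so the 4 cannot be set against it. Some of the 19 were also named because they differed at least 2-fold with butyrate. The log2 fold changes of *Aldh1a1* were 1.22 (48 h) and -0.72 (72 h), and those of *Aldh1a7* were 1.04 and -0.56. *Dhrs3* had 0.25 and -0.20, and *Isx* 0.095 and -0.090, both of them under 1.5-fold at each time. No group held the 4 samples needed to look for a sample far from the others.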

How the results depend on the processing

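With 1 library per condition, no library could be left out of a comparison at 1 time. A fit of butyrate with day as the block, which would use the days as replicates of the treatment, was not run. Of 604 log2 fold changes of single genes recomputed, 599 moved by less than their counting interval, 5 moved by more and 0 of those with an interval clear of 0 changed sign. The largest shift of the median of all genes was 0.075, under total count scaling. The number of members at least 2-fold different with butyrate at 48 h was 1 in place of 2 when the filter was a mean of at least 50 normalised counts, which removes *Rarb*. At 72 h it was 1 in place of 0 under total count scaling, under that scaling without mitochondrial genes and with a pseudocount of 0.5, where *Rarb* passed 2-fold, and 1 with a filter of at least 1 count, which admits *Crabp2*. With that last filter it was also 1 in place of 0 over time in butyrate cultures. At 1.5-fold, the members were 2 at 72 h, 2 over time in untreated and 3 over time in butyrate cultures. The median of the members over time in untreated cultures was -0.016 in place of 0.06 under total count scaling. For the other pathway genes, a filter of at least 1 count gave 16 at 48 h, 11 at 72 h, 8 over time in untreated and 17 over time in butyrate cultures, and a 1.5-fold threshold gave 16, 10, 5 and 16, in place of 8, 6, 2 and 10. Total count scaling gave 1 over time in untreated cultures, and a mean of at least 50 gave 5 over time in butyrate cultures. Among the members, depth limits *Crabp2* and *Rarb* most, and *Aldh1a2*, *Rxrg*, *Cyp26a1* and *Cyp26c1* had 3 counts or fewer in every library.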
